A study of Mus musculus with 6 samples.

Results

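Transcripts of 9 genes that supply, make, break down or read out retinoic acid were followed in the embryonic mouse pancreas at 13.5 and 15.5 days post coitum (dpc). The genes were taken by name: *Rbp4* and *Stra6* for retinol supply, *Rdh10*, *Aldh1a1*, *Aldh1a2* and *Aldh1a3* for synthesis, *Cyp26a1* and *Cyp26b1* for breakdown, and *Rarb* for the response. The rule itself uses no measured value, but the list was drawn up with earlier results of these data known. The genes are 9 of 37224 genes in the table. Whole pancreata of wild-type (wt) C57/Bl6J embryos were collected in 3 samples at either stage, with organs of no more than 3 embryos pooled in a sample, and their poly(A) RNA was sequenced. No treatment, transgene or mutation was involved, and stage is the only labelled factor. Anything unlabelled that went with stage cannot be told apart from it. The 13.5 dpc samples are the reference for those of 15.5 dpc.

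Retinoic acid is made from vitamin A. Retinol travels in blood bound to the carrier protein Rbp4, can enter cells through the membrane receptor Stra6, is oxidised to retinal by retinol dehydrogenases such as Rdh10, and is then oxidised irreversibly to retinoic acid by the retinaldehyde dehydrogenases of the Aldh1a family. Cyp26 enzymes hydroxylate and inactivate it, and nuclear Rar and Rxr receptors bound to DNA change the transcription of target genes when it is present. In the pancreas, retinoic acid from mesoderm is known to be needed for the specification of the dorsal bud, and it has been linked to endocrine and exocrine differentiation later on.

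*Rarb* and *Cyp26a1* are the classical genes through which cells both sense and limit retinoic acid, and their promoters carry well-known binding elements of Rar and Rxr. Such an element is a direct repeat of 2 half-sites spaced by 5 bases. Promoter windows from 250 bases before to 50 bases after each RefSeq start (GRCm38.p6) were searched on both strands for the half-sites AGGTCA or AGTTCA and also for GGGTCA or GGTTCA, in any pair. A repeat spaced by 5 bases was present in 32 of 32851 windows of all genes, or 0.0974%. Of the 9 genes, 7 have a window in that table, and *Rarb* and *Cyp26a1* are the ones with such a repeat. Since both promoters were known to carry such an element, its presence there is a description and not a test. The sequences set these 2 genes apart from the others of the 7 only. They are shown with half-sites in capitals and read 5′ to 3′ along the transcribed direction of each gene.
Rarb, chr14:16575483-16575559, minus strand: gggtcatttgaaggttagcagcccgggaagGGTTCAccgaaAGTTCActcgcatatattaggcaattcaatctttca
Cyp26a1, chr19:37697746-37697807, plus strand: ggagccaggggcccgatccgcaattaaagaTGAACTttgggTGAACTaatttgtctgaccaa
In *Rarb* the repeat lies 53 to 37 bases before the start, and in *Cyp26a1* it lies 32 to 16 bases before the start on the opposite strand. Among the 62 listed retinoid pathway genes, 46 have a window, and no other gene of these 46 has the repeat. Repeats spaced by 1 or 2 bases were found in 0.222% and 0.268% of all windows and in none of the 12 windows of the 7 genes. A match of letters describes the sequence and was not tested as a binding site.

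Depth was between 10546028 and 16389237 counts per sample. Of all genes, 15578 passed the filter on low counts and were tested, and the median log2 fold change between stages was -0.01 over these genes. The pancreas markers *Pdx1* and *Ptf1a* were present in every sample, with 1194 to 1470 and 599 to 3454 normalised counts, that is, counts scaled to the same effective library size. The 15.5 dpc samples differed more among themselves than the 13.5 dpc ones, and at both stages differences between samples followed gene length. Across the tested genes, which are not independent replicates, Spearman's rho of exon length with the log2 difference was -0.589 for 15.5 dpc replicate 1 minus 2, -0.49 for 1 minus 3 and 0.525 for 2 minus 3, so that at 15.5 dpc short genes were relatively high in replicate 1 and long genes in replicate 2. At 13.5 dpc it was -0.0289 for replicate 1 minus 2, -0.325 for 1 minus 3 and -0.312 for 2 minus 3. Summed over 7 acinar markers, replicates 1, 2 and 3 of 15.5 dpc had 72990, 29360 and 42400 RPKM (counts scaled by exon length in kb and by effective library size), and the 13.5 dpc samples had 4196 to 5061. In whole-organ RNA, fewer cells of a type and less RNA per cell cannot be told apart, which bears on every stage difference given here.

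With edgeR's quasi-likelihood test and Benjamini-Hochberg adjustment over all genes tested, called at an adjusted p of 0.05, 5 of the 8 tested genes of the list differed between stages. Of all tested genes, 22.3% did. The gene that rose was *Aldh1a1*, against 11.6% of all tested genes called higher. *Stra6*, *Rdh10*, *Cyp26b1* and *Rarb* fell, 4 of 8 against 10.7% called lower. For these 5 genes no sample of one stage lay within the range of the other, which also held for 46.4% of all tested genes. *Rbp4*, *Aldh1a2* and *Aldh1a3* were not called, and *Cyp26a1* was too low to test. Under the thresholds of the study's methods, applied to 14011 protein-coding genes, the same 4 genes were lower and *Aldh1a1* was higher, against 3.9% and 6.47% of those genes.

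**Figure D1:**
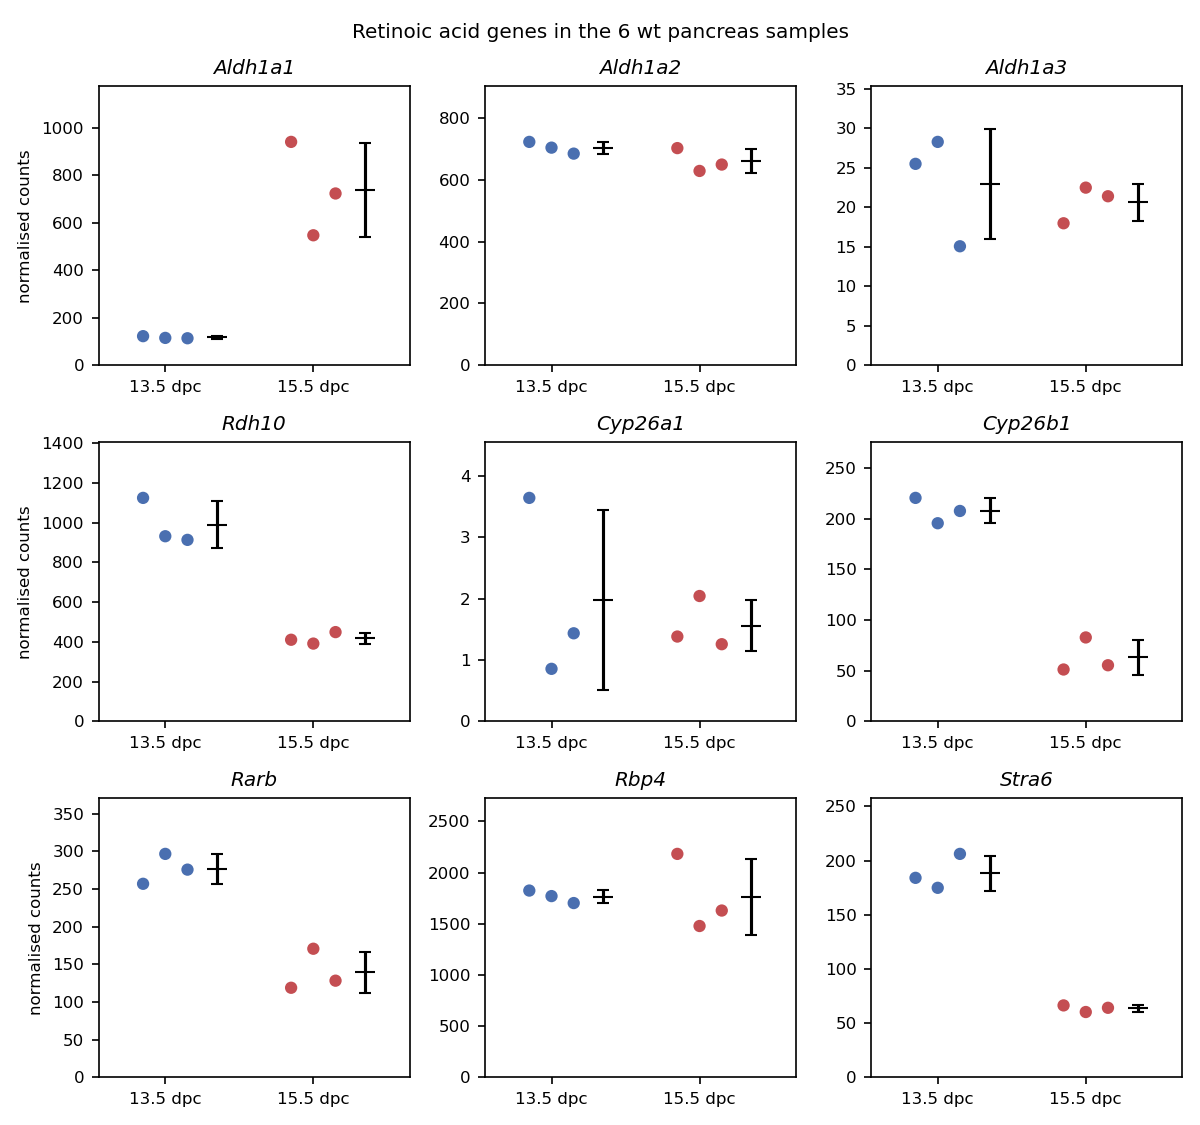
Normalised counts of the 9 retinoic acid genes (y axes, linear, each from 0) in the 6 wt pancreas samples, with 13.5 dpc in blue and 15.5 dpc in red, points in the order of replicates 1, 2 and 3, and bars for the mean ± SD of 3 samples. The 3 samples of 15.5 dpc lie above those of 13.5 dpc for *Aldh1a1* and below them for *Rdh10*, *Cyp26b1*, *Rarb* and *Stra6*, and the stages overlap for the other 4 genes.

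Of the supply genes, the retinol carrier was abundant and the retinol receptor fell. *Rbp4* (ENSMUSG00000024990, mm10 chr19:38116620-38125321, minus strand) encodes the plasma retinol carrier, which is made mainly by the liver in the adult. At 13.5 dpc it had 1824, 1770 and 1702 normalised counts, and at 15.5 dpc 2182, 1478 and 1629. Replicate 1 of 15.5 dpc was the highest of the 6 samples and replicate 2 the lowest, so that the later stage spanned the earlier one. The log2 fold change was 0.00 (95% confidence interval -0.35 to 0.35, adjusted p = 0.991). A fit that removed the trend of fold change with gene length called it lower, by -0.25 on the log2 scale (adjusted p = 0.0196, in a range of 0.0196 to 0.994 over 15 alternatives). Per exon length *Rbp4* was the highest of the 9 genes at both stages, at 108 ± 3.75 and 108 ± 22.6 RPKM (SD, n = 3), at or above 96.5% of the tested protein-coding genes in mean level.

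Because hepatocytes make *Rbp4*, 7 liver markers were read beside it. Their summed level was 54.2 to 80.3 RPKM at 13.5 dpc and 35.0 to 56.7 RPKM at 15.5 dpc. None of the 7 was at 0, 0 were called higher and 3 lower, beside 11.6% of all tested genes called higher and 10.7% called lower. The 3 were *Serpina1a*, *Fgb* and *Afp*, whose log2 fold changes were -2.38, -1.25 and -0.66. *Alb*, the main protein of adult plasma, had 314, 208 and 150 normalised counts at 13.5 dpc and 208, 167 and 65.5 at 15.5 dpc, against more than 1400 of *Rbp4* in each sample. The part of liver RNA in the level of *Rbp4* was not tested. *Ttr*, the partner that carries Rbp4 in plasma and is also made by islet cells, had a log2 fold change of 0.48 (adjusted p = 0.152) and a mean of 5124 ± 125 normalised counts at 13.5 dpc and 7171 ± 2445 at 15.5 dpc.

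*Stra6* (ENSMUSG00000032327, chr9:58063788-58153996, plus strand) encodes the membrane receptor that takes up retinol from Rbp4, and its own transcription is known to be raised by retinoic acid in many cells. It had 184, 175 and 206 normalised counts at 13.5 dpc and 66.4, 60.3 and 64.2 at 15.5 dpc. All 3 later samples lay within 7 counts of each other and far below the earlier ones. It fell 2.96-fold (log2 fold change -1.57, SE 0.13, 95% confidence interval -1.88 to -1.25, adjusted p = 0.000739). The mean went from 188 ± 16.1 to 63.7 ± 3.09 (SD, n = 3).

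In the first step of synthesis, *Rdh10* (ENSMUSG00000025921, chr1:16105774-16133734, plus strand), the main embryonic retinol dehydrogenase, fell as well. The 13.5 dpc samples held 1125, 932 and 914 normalised counts of it and the 15.5 dpc samples 411, 392 and 449.5. Even the lowest 13.5 dpc sample was at more than 2 times the highest 15.5 dpc sample. The mean went from 990.3 ± 117 to 417 ± 29.5 (SD, n = 3), which is 2.37-fold lower (log2 fold change -1.25, SE 0.12, 95% confidence interval -1.52 to -0.97, adjusted p = 0.000976). *Rdh10* was nonetheless the fourth highest of the 9 genes per exon length at 15.5 dpc, at 7.94 ± 0.561 RPKM.

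The second step is shared by 3 enzymes, and their mRNAs behaved differently. *Aldh1a1* (ENSMUSG00000053279, chr19:20601961-20643462, plus strand) had 123, 116 and 114 normalised counts at 13.5 dpc and 939.7, 547 and 723 at 15.5 dpc. Each later sample was above 4 times any earlier one, and the later samples differed among themselves by less than 2 times. The gene rose 6.25-fold (log2 fold change 2.64, SE 0.20, 95% confidence interval 2.16 to 3.12, adjusted p = 0.000576). The order of the 15.5 dpc samples, with replicate 1 highest and replicate 2 lowest, was also that of several marker sums. In replicates 1, 2 and 3 the sums were 72990, 29360 and 42400 RPKM for the acinar list (7 of 7 markers higher at 15.5 dpc) and 3293, 1784 and 2289 RPKM for the endocrine list (3 of 8 higher and 2 lower). The epithelial sum (3 of 6 higher and 1 lower) was 1442, 1021 and 1170 RPKM, and the mesothelial sum with *Krt19* (2 of 6 higher and 1 lower) had this order too, as did *Rbp4* and *Ttr*. Of all tested genes, 11.6% were called higher and 10.7% lower. *Aldh1a1* has 2053 exon bases, and it was still called higher once the trend with gene length was removed (adjusted p = 3.1e-05, in a range of 1.45e-28 to 0.009 over 15 alternatives). The part of these cells in the rise of *Aldh1a1*, and that of gene length in the order of its samples, was not tested. The gene shares 7.53% of its windows of 50 exon bases with its close copy *Aldh1a7*, which also rose, from 35.7 ± 1.03 to 105 ± 26.4 normalised counts (log2 fold change 1.55, adjusted p = 0.00313). The authors counted uniquely aligned reads, so that reads lying wholly within such shared stretches would be missing from both genes.

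*Aldh1a2* (ENSMUSG00000013584, chr9:71215789-71296243, plus strand), the retinaldehyde dehydrogenase of mesoderm and mesothelium, differed little between stages. It had 722, 703 and 684 normalised counts at 13.5 dpc and 702, 628 and 649 at 15.5 dpc. Replicate 1 of 15.5 dpc lay among the earlier samples and the other two lay below them. The log2 fold change was -0.09 (SE 0.09, 95% confidence interval -0.30 to 0.12, adjusted p = 0.469), so that a fall larger than 0.30 or a rise larger than 0.12 lay outside the interval. Scaled by library size alone, which moved the median of all tested genes to -0.22, it was called lower at -0.31 (adjusted p = 0.045, in a range of 0.045 to 0.714 over 15 alternatives).

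*Aldh1a3* (ENSMUSG00000015134, chr7:66390892-66427517, minus strand), the third enzyme of the family, known from sensory organs and epithelia, was close to the limit of what these libraries can compare. It was counted 28, 33 and 21 times at 13.5 dpc and 13, 22 and 17 times at 15.5 dpc, or 25.5, 28.3 and 15.1 and then 18.0, 22.5 and 21.4 normalised counts. Replicate 3 of 13.5 dpc was the lowest of all and the stages overlapped. The log2 fold change was -0.13 with a 95% confidence interval from -0.81 to 0.56 (adjusted p = 0.769), which holds values of either sign.

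Set side by side per exon length, *Aldh1a2* led the family at 13.5 dpc, and *Aldh1a1* and *Aldh1a2* overlapped in level at 15.5 dpc. *Aldh1a1* made up 15.6, 15.1 and 15.4% of the summed RPKM of the 3 genes at 13.5 dpc and 59.3, 48.6 and 54.7% at 15.5 dpc. The share of *Aldh1a2* was 83.3 ± 0.358% and then 45.1 ± 5.21%, and that of *Aldh1a3* 1.33 ± 0.381% and then 0.705 ± 0.192% (SD, n = 3). At 15.5 dpc *Aldh1a1* was above *Aldh1a2* in replicates 1 and 3 and marginally below it in replicate 2, where the ratio of *Aldh1a2* to *Aldh1a1* was 1.04. The summed level of the family was 30.4, 29.5 and 28.6 RPKM at 13.5 dpc and 61.1, 43.4 and 50.9 RPKM at 15.5 dpc, with no overlap between stages. These shares are of mRNA and carry no measure of enzyme or of retinoic acid.

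On the side of breakdown, the mRNA of the one well-measured enzyme fell. *Cyp26b1* (ENSMUSG00000063415, chr6:84571414-84593908, minus strand), a retinoic acid hydroxylase known from mesenchyme of several organs, had 221, 196 and 208 normalised counts at 13.5 dpc and 51.2, 82.8 and 55.4 at 15.5 dpc. Replicate 2 was the highest of the later samples but still under the lowest earlier sample by more than 2 times. The mean went from 208 ± 12.5 to 63.2 ± 17.2 (SD, n = 3), which is 3.25-fold lower (log2 fold change -1.70, SE 0.19, 95% confidence interval -2.15 to -1.25, adjusted p = 0.00163). The summed level of 8 mesenchymal markers at 15.5 dpc was also highest in replicate 2, at 1132, 1503 and 1362 RPKM in replicates 1, 2 and 3, against 1507 to 1652 RPKM at 13.5 dpc. Of the 8 markers, *Nkx3-2*, *Pdgfra* and *Barx1* fell, with log2 fold changes of -1.70, -1.33 and -0.72, and the collagen genes *Col1a1*, *Col1a2* and *Col3a1* were not called at -0.12, -0.24 and -0.20. The 3 collagen genes hold most of the sum, and the order was not that of all markers, since *Barx1* (38.4, 22.3 and 29.5 RPKM) and *Vim* (357, 312 and 334 RPKM) were lowest in replicate 2. None of the 8 was at 0. In all, 3 of the 8 were called lower and 0 higher, beside 10.7% and 11.6% of all tested genes. *Cyp26b1* has 4849 exon bases, and with the length trend removed its log2 fold change was -1.60. The part of mesenchyme in its fall and that of gene length in the order of its samples were not tested.

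*Cyp26a1* (ENSMUSG00000024987, chr19:37697808-37701528, plus strand), the family member that retinoic acid induces most readily in the embryo, was at the limit of detection. It was counted 4, 1 and 2 times at 13.5 dpc and 1, 2 and 1 times at 15.5 dpc. In 5 of the 6 samples it was at or below a floor of 3 counts, so neither a fold nor a test is given. *Cyp26c1*, the remaining family member, was counted 0, 0 and 1 times and then 0, 1 and 0 times. The summed level of *Cyp26a1* and *Cyp26b1* was thus nearly that of *Cyp26b1* alone, at 3.76, 3.23 and 3.45 RPKM at 13.5 dpc and 0.897, 1.44 and 0.960 RPKM at 15.5 dpc.

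The ratio of summed Aldh1a to summed Cyp26 mRNA, both per exon length, was 8.08, 9.14 and 8.27 at 13.5 dpc and 68.0, 30.1 and 53.0 at 15.5 dpc. The stages did not overlap, and the mean went from 8.50 ± 0.566 to 50.4 ± 19.1 (SD, n = 3). On counts not divided by exon length the means were 4.03 and 23.4, more than 2 times lower at both stages. No test was made of this ratio, since its genes were chosen together, and its size depends on the genes that are summed. Both the numerator and the denominator moved, and the samples of 15.5 dpc differed by more than 2 times among themselves.

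**Figure D2:**
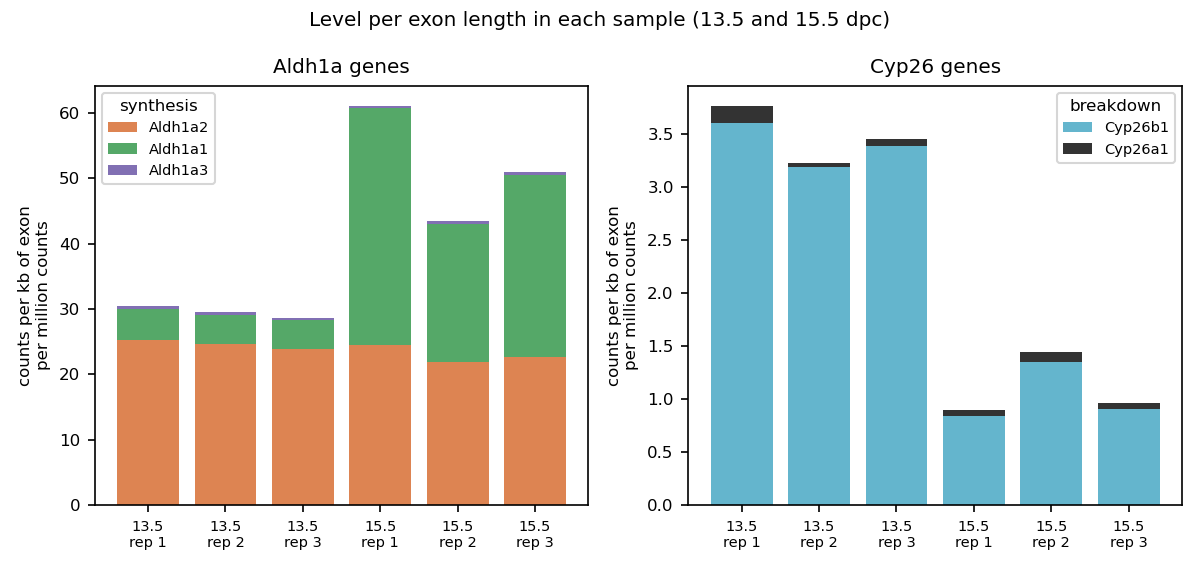
Stacked RPKM (y axes, linear, from 0) of the Aldh1a genes on the left and the Cyp26 genes on the right in each of the 6 samples (x axes), 1 bar per sample. The *Aldh1a2* segment is 22.0 to 25.2 RPKM high in all 6 samples while the *Aldh1a1* segment grows from 4.40 to 4.74 RPKM at 13.5 dpc to 21.1 to 36.2 RPKM at 15.5 dpc, and the *Cyp26b1* segment shrinks from 3.19 to 3.60 RPKM to 0.836 to 1.35 RPKM.

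*Rarb* (ENSMUSG00000017491, chr14:16430842-16575472, minus strand) encodes a retinoic acid receptor whose transcription, from the promoter shown above, is a common readout of retinoic acid. It had 257, 297 and 276 normalised counts at 13.5 dpc and 119, 171 and 128 at 15.5 dpc. As for *Cyp26b1*, replicate 2 was the highest of the later samples, and no later sample reached any earlier one. It fell 1.97-fold, from 276.5 ± 19.9 to 139 ± 27.6 (SD, n = 3; log2 fold change -0.98, SE 0.16, 95% confidence interval -1.35 to -0.61, adjusted p = 0.00611). Its 3′ end lies opposite the neighbouring gene *Top2b*, a DNA topoisomerase, in a later annotation than the one used for counting, where 53.6% of the windows of 50 exon bases of *Rarb* are antisense to *Top2b* transcripts.

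*Top2b* fell too, from 42.3 ± 0.436 to 29.8 ± 4.38 RPKM (log2 fold change -0.50, adjusted p = 0.024), which matters for *Rarb* only if reads of both strands were counted. The library kit preserves strand, and the strand setting of the counting is not given in the sources used here. In the table, 0 of 296 genes that lie wholly within exons of another gene on the same strand had 10 or more counts over the 6 samples, whereas 28 of 144 such genes on the other strand reached 10 counts, the highest with 8269. Counting without strand would leave reads of both kinds ambiguous.

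By level per exon length, the 9 genes formed a clear order at 13.5 dpc, when no 2 neighbours overlapped in their 3 samples. It ran from *Rbp4* at 108 RPKM through *Aldh1a2* at 24.6, *Rdh10* at 18.8, *Rarb* at 7.21, *Aldh1a1* at 4.54, *Cyp26b1* at 3.39, *Stra6* at 2.56 and *Aldh1a3* at 0.394 to *Cyp26a1* at 0.0884 RPKM. At 15.5 dpc *Aldh1a1* had moved from the fifth to the second place, at 28.4 ± 7.58 RPKM, with samples that overlapped those of *Aldh1a2* at 23.1 ± 1.33 RPKM. *Cyp26b1* at 1.03 ± 0.280 and *Stra6* at 0.864 ± 0.0419 RPKM were the other neighbours that overlapped. *Aldh1a2*, *Rdh10* and *Rarb* each stood 1 place lower than at 13.5 dpc and the rest kept their places, with *Rarb* at 3.64, *Aldh1a3* at 0.354 and *Cyp26a1* at 0.0698 RPKM.

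Of 53 other genes listed for the retinoid pathway, 34 were tested, 7 rose and 9 fell, and 18 were not called, beside 11.6% of all tested genes called higher and 10.7% called lower. Their median log2 fold change was -0.05, against -0.01 for all tested genes, and 19 of the 34 had stages that did not overlap, beside 46.4% of all tested genes. The count of rises was 4 without any 1 of the 13.5 dpc samples and 11 without 15.5 dpc replicate 2, and that of falls was 5 without any 1 of the 13.5 dpc samples or without 15.5 dpc replicate 3. The enzymes of retinol and retinal other than the described ones held 3 rises and 0 falls among 10 tested, too few to set the falls apart from the 10.7% of all tested genes called lower (11.6% were called higher). These were *Adh1*, an alcohol dehydrogenase that oxidises retinol (log2 fold change 1.59, adjusted p = 0.00989), *Aldh1a7* (above), and *Dhrs3*, which reduces retinal back to retinol (0.56, adjusted p = 0.0355). *Adh1* was low, with 13.7, 19.7 and 25.1 normalised counts at 13.5 dpc and 72.0, 43.0 and 66.7 at 15.5 dpc. *Adh5* and *Dhrs4*, the most abundant of this group per exon length, had log2 fold changes of 0.40 and 0.38 and were not called (adjusted p = 0.0882 and 0.0839).

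Of 5 genes for storage of retinol and cleavage of carotene, 2 were tested. *Bco1*, which cleaves beta-carotene to retinal, fell by 0.83 on the log2 scale (adjusted p = 0.0425), and *Dgat1* was not called at -0.12. *Lrat*, which esterifies retinol for storage, did not pass the filter and was counted 1, 4 and 6 times at 13.5 dpc and 9, 10 and 4 times at 15.5 dpc.

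The intracellular binding proteins changed in opposite directions. *Rbp2*, the retinol binding protein known from enterocytes, had 27.3, 32.6 and 26.6 normalised counts at 13.5 dpc and 444, 173 and 287 at 15.5 dpc, in the same order of later samples as *Aldh1a1*. It rose by a log2 fold change of 3.37 (SE 0.37, adjusted p = 0.00144). *Fabp5*, which binds fatty acids and also retinoic acid, rose from 1076 ± 14.2 to 2436 ± 536 normalised counts (log2 fold change 1.18, adjusted p = 0.00304), with 5.48% of its windows shared with copies elsewhere in the genome. *Crabp2*, which delivers retinoic acid to Rar receptors, fell from 81.1, 97.7 and 80.5 normalised counts to 22.1, 12.3 and 18.9. Its log2 fold change was -2.30 (SE 0.23, adjusted p = 0.00112). *Crabp1*, which also binds retinoic acid, was not called at -0.04 (adjusted p = 0.897).

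Among the 5 other receptors, *Rara* and *Rxrg* fell and none rose, beside 10.7% of all tested genes called lower and 11.6% called higher. *Rara* had 893, 921 and 925 normalised counts at 13.5 dpc and 668, 694 and 659.8 at 15.5 dpc, a log2 fold change of -0.44 (adjusted p = 0.0112). *Rxrg*, per exon length the least abundant of the listed receptors at 15.5 dpc, fell from 155 ± 16.0 to 55.4 ± 12.4 (log2 fold change -1.48, adjusted p = 0.00235). *Rarg*, *Rxra* and *Rxrb* had log2 fold changes of -0.06, -0.29 and 0.00 and were not called.

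Of 14 genes listed as retinoic acid targets, 11 were tested, 5 fell and 2 rose, beside 10.7% of all tested genes called lower and 11.6% called higher. Among those that fell were the homeobox genes *Hoxa5*, *Meis1*, *Hoxb5* and *Meis2*, which pattern the axis and mark mesenchyme and nerve cells, with log2 fold changes of -1.03, -0.89, -0.64 and -0.56. Those that rose were *Rarres1*, a gene named for its response to Rar ligands, at 2.11 (adjusted p = 0.0202) and *Bhlhe40*, a transcriptional repressor, at 0.66 (adjusted p = 0.0234). *Rarres1* was low, with 7.29, 11.2 and 7.90 normalised counts at 13.5 dpc and 66.4, 26.6 and 23.9 at 15.5 dpc. *Tgm2*, *Nrip1* and *Rarres2* were not called.

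**Figure D3:**
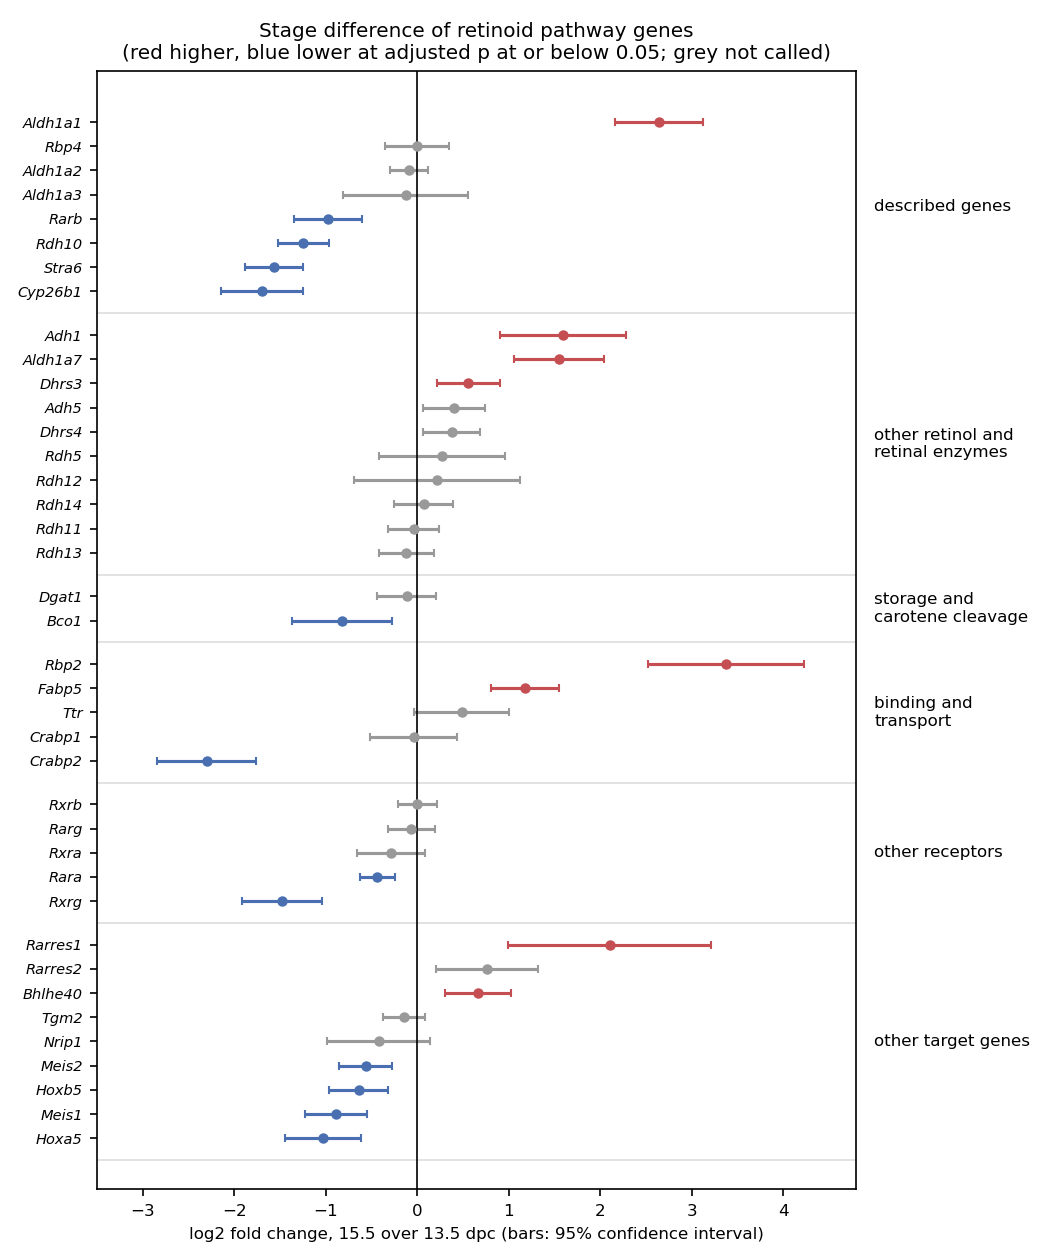
Log2 fold change of 15.5 over 13.5 dpc (x axis) with 95% confidence interval (bars) for the 8 tested retinoic acid genes and tested genes of the other pathway lists, grouped by role, from edgeR's quasi-likelihood test on 3 samples per stage. Red genes were called higher, blue genes lower and grey genes were not called. *Rbp2* at 3.37 and *Aldh1a1* at 2.64 lie farthest to the right, and *Crabp2* at -2.30 and *Cyp26b1* at -1.70 farthest to the left.

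Across 101 genes of the pathway and marker lists, the gene most alike in pattern to each described gene was sought as the one with the smallest root mean square difference of log2 CPM (counts scaled to a common library size), centred per gene, over the 6 samples. For *Aldh1a1* this was *Cel*, the carboxyl ester lipase of acinar cells, at 0.218, followed by *Ins1* at 0.233. *Cyp26b1* was nearest to *Nkx3-2*, a transcription factor of pancreatic mesenchyme, at 0.103, and then to *Pdgfra* at 0.191. *Rarb* was nearest to *Meis1* at 0.117. *Stra6* was nearest to *Rdh10* at 0.206, *Rbp4* to *Rdh14* at 0.0838 and *Aldh1a3* to *Gpm6a* at 0.154. *Aldh1a2*, whose log2 values spanned 0.20 in all, was nearest to *Rxrb* at 0.0482. With 6 samples of 2 stages, a small distance chiefly reflects a like change between stages, and for genes with little change it reflects little change.

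**Figure D4:**
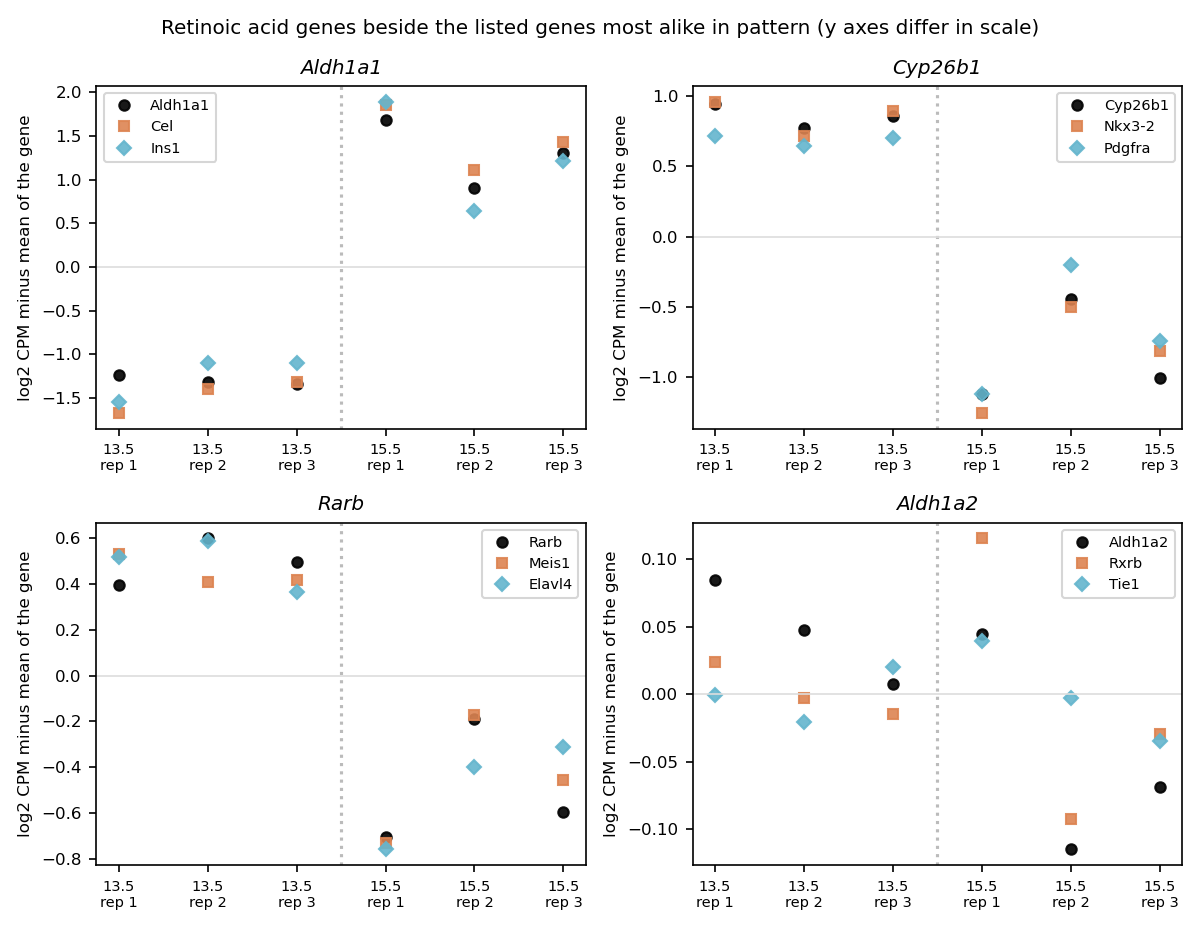
Log2 CPM minus the mean of each gene (y axes, which differ in scale) in the 6 samples (x axes) for *Aldh1a1*, *Cyp26b1*, *Rarb* and *Aldh1a2* (black circles), each with the listed gene most alike (orange squares) and the second (blue diamonds). *Nkx3-2* stays close to *Cyp26b1* with a root mean square difference of 0.103, including the higher value of 15.5 dpc replicate 2.

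Markers of further cell types were read in the same samples, beside 11.6% of all tested genes called higher and 10.7% called lower. Of 6 mesothelial markers, *Wt1* fell (log2 fold change -0.75, adjusted p = 0.00389), *Msln* and *Krt19* rose by 2.00 and 1.01, and *Upk3b* was not called at -0.01, and the summed level was 84.7 to 87.2 RPKM at 13.5 dpc and 99.6 to 142 RPKM at 15.5 dpc. *Krt19* is also a gene of duct epithelium, and without it, a choice made after its values were seen, the sum of the other 5 was 50.4 to 50.8 RPKM and then 41.7 to 48.6 RPKM, in the opposite direction. *Upk3b* had 786 to 880 normalised counts in all 6 samples, in which *Aldh1a2* had 628 to 722. Of 5 neural and glial markers, 3 fell, among them *Elavl4* and *Sox10* (-0.99 and -0.43), with a summed level of 29.9 to 31.5 RPKM and then 21.8 to 24.2 RPKM. None of 5 endothelial markers was called by edgeR, and none had an unadjusted p under 0.05. No marker of these lists was at 0 in the samples, and their part in the differences of the retinoic acid genes was not tested.

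**Figure D5:**
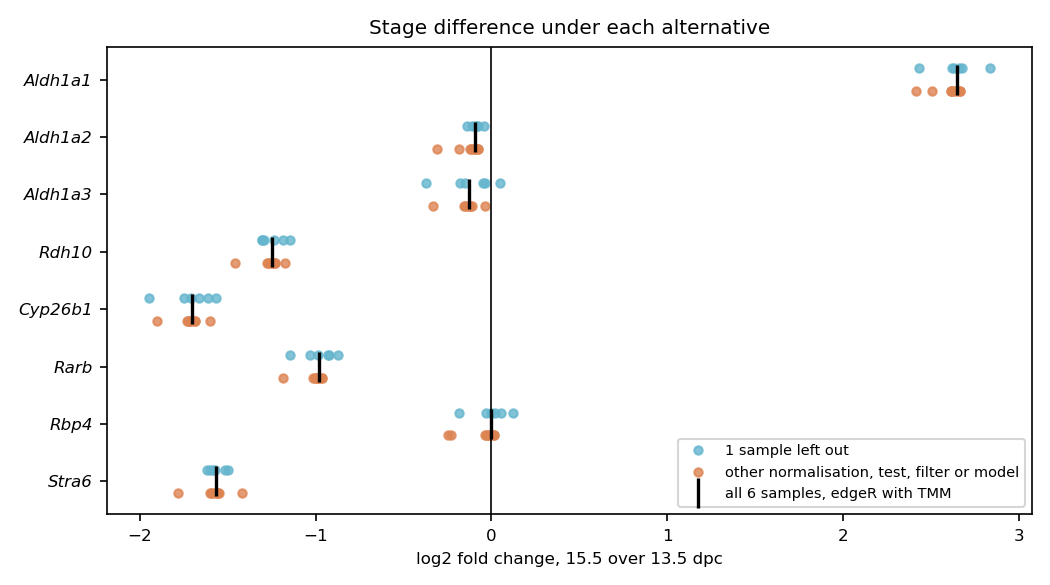
Log2 fold change of 15.5 over 13.5 dpc (x axis) of the 8 tested genes with all 6 samples (black line), with 1 sample left out (blue points) and under another normalisation, test, filter or model (orange points). All points of *Aldh1a1* lie between 2.41 and 2.83, all points of *Rdh10*, *Cyp26b1*, *Rarb* and *Stra6* lie below 0, and those of *Aldh1a3* and *Rbp4* lie on both sides of 0.

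*Aldh1a1*, *Rdh10*, *Cyp26b1*, *Rarb* and *Stra6* kept their direction and their call in each of 15 alternative fits. The log2 fold changes ranged from 2.41 to 2.83 for *Aldh1a1*, from -1.46 to -1.15 for *Rdh10* and from -1.95 to -1.57 for *Cyp26b1*. Those of *Rarb* ranged from -1.18 to -0.87, with a highest adjusted p of 0.0384, and those of *Stra6* from -1.78 to -1.42.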

How the data were processed

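RNA of 6 wt pancreas samples was analysed. The authors aligned single-end reads of strand-specific poly(A) libraries to mm10 and, per the labels, counted them on genes with featureCounts 1.4.6 (bcl2fastq 1.8.4 for base calls). The deposited table holds raw counts per Ensembl gene and the exon length in bases that the authors' counting tool wrote. The study's text calls the samples biological replicates.

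Counts were filtered with filterByExpr, normalised with TMM and tested with edgeR 4.0.16 (glmQLFit, R 4.3.3) without covariates, with Benjamini-Hochberg adjustment over 15578 genes. The SE is the size of the log2 fold change over the root of F. RPKM are counts over exon length in kb and effective library size. Log2 CPM used a prior count of 2. Intervals are for the log2 fold change between stages. They rest on the spread between samples as estimated by the fit, which borrows from other genes. The fit was also run on simulated counts with the same spread for all genes at both stages and no length trend. These settings differ from the data, so that run does not speak for the results here. Symbols, biotypes and windows of 50 bases came from GENCODE, for 35449 of 37224 identifiers.

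The 9 genes, the pathway lists and the markers were chosen with earlier results of these data known. Beside the 9, the rule named the 12 listed genes called with the largest log2 fold changes of at least 1, every receptor and cellular binding protein above 100 mean normalised counts, and the gene most alike to each. The acinar, endocrine and erythroid genes among the 12 are given as lists. Of 7 acinar, 8 endocrine, 6 epithelial, 4 immune and 4 erythroid markers, 7, 3, 3, 0 and 1 were higher and 0, 2, 1, 1 and 2 lower. Over all tested genes the shares were 11.6% higher and 10.7% lower. Other genes were named after their values were seen. Some listed genes enter the counts but are not reported here by name.

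Alternatives were library size, RLE and upper quartile factors, DESeq2 1.42.0, no filter or at least 10 counts, a replicate block, removal of genes above 1% of counts, removal of the length trend (lowess), and each sample left out. The thresholds of the study's methods were an adjusted p of 0.1, 100 normalised counts and a fold below 0.6 or above 1.6.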

Additional observations from a re-analysis of the deposited data

How the results depend on the processing

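Of 120 comparisons of a tested gene with an alternative, 112 kept direction and call. *Rbp4*, near 0 with all samples, was 0.0148 with RLE factors and 0.0149 with DESeq2, ranged from -0.18 to 0.12 with a sample left out, and was called at -0.25 (adjusted p = 0.0196) once the length trend was removed. *Aldh1a3* ranged from -0.37 to 0.0509 with a sample left out, with the positive value when 13.5 dpc replicate 2 was left out. *Aldh1a2* was called with library size alone (-0.31, adjusted p = 0.045), which also changed the split of all calls from 1805 higher and 1662 lower to 1133 and 2952. On counts in place of counts per exon base, the share of *Aldh1a1* at 13.5 dpc was 13.95%, and the Aldh1a to Cyp26 ratio was 4.03 at 13.5 dpc and 23.4 at 15.5 dpc.

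With a sample left out, 4 to 11 other pathway genes were higher and 5 to 12 lower, against 7 and 9. The 4 was reached without any 1 of the 13.5 dpc samples, the 5 also without 15.5 dpc replicate 3, and the 11 and 12 without 15.5 dpc replicate 2. Of all genes, 3467 were called with 6 samples, 1235, 1331 and 1402 without replicates 1, 2 and 3 of 13.5 dpc, 1438 without 15.5 dpc replicate 3 and 7620 without 15.5 dpc replicate 2. Fewer samples remained in each of these fits, and the cause of the gain was not tested. How far samples with the same number at both stages varied alike gave correlations of 0.22, -0.218 and 0.0378 for replicates 1, 2 and 3. With 3 samples per stage, and differences between samples that followed gene length, these values cannot decide whether the numbers pair them. A replicate block called 2676 genes and left 1 of the 9 genes higher and 4 lower. *Cyp26a1*, *Cyp26c1* and *Lrat* did not pass the filter on low counts and were not tested.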
